A study of Drosophila melanogaster with 6 samples.

Results

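The gap and head gap genes of *Drosophila* were followed in mutant and wild-type embryos. They were chosen by name as the trunk gap genes *hb*, *Kr*, *kni*, *knrl* and *gt* and the head gap genes *oc*, *ems* and *btd*, which are 8 of the 17714 genes in the deposited tables. RNA was sequenced from whole embryos of mixed stages, with 3 biological replicates of *Raf926* and 3 of WT. *Raf926* embryos came from mothers with homozygous *Raf926* germline clones made by FLP/FRT recombination (*w*, *Raf926*, FRT19A over *OvoD2*, FRT19A). The cross was described as one to hemizygous males. The records give the embryo genotype as *Raf926*-/-, whereas the study describes zygotic *Raf* expression as heterozygous. This difference in the zygotic genotype was not settled. The allele is a short deletion in the coding region of *Raf*, the kinase between Ras and MEK. WT embryos were of the Oregon R strain, so the groups also differed in the *w* marker, the FRT19A chromosome and the strain background. Each sample was a pool of embryos, and the comparison asked which genes depend on maternal Raf. The sample records give egg laying over 24 h at 25 °C, while the methods of the study give 0 to 12 h at 18 °C, and this conflict was not settled. In such pools a lower level from fewer cells of a type, from less RNA per cell or from a different mix of embryo ages cannot be told apart.

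Gap genes form the first zygotic tier of the anterior-posterior patterning cascade. Maternal factors such as Bicoid and Caudal switch them on in broad overlapping domains of the syncytial blastoderm, the gap proteins repress one another to sharpen these domains, and together they position the stripes of the pair-rule genes. Loss of *hb*, *Kr*, *kni* or *gt* deletes a block of neighbouring segments, whereas loss of a head gap gene deletes head segments. All 8 encode transcription factors, and most of them are expressed again later, in neuroblasts, the brain, the trachea, the gut or other tissues. A mixed-stage pool therefore holds their early and late transcripts together.

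*Raf*, the mutated gene, had normalized counts of 1202, 1399 and 1546 in *Raf926* embryos, against 2539, 2935 and 2184 in WT embryos (54.2% of WT, log2 fold change −0.88, adjusted p = 0.0016). A normalized count is an expected count brought to the mean library size with TMM factors, and each log2 fold change is *Raf926* over WT. Adjusted p-values come from the quasi-likelihood test of edgeR and were adjusted by Benjamini-Hochberg across the 11568 genes tested. Libraries held between 33275401 and 38120428 counts. Genes of muscle stood apart in *Raf926* replicate 2, where *Mhc*, *Mlc2*, *Act57B* and *up* summed to 218 TPM, against 10.3 and 3.95 TPM in the other two *Raf926* replicates. All 8 gap genes passed the filter on low counts, with at least 32 counts in every sample.

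Of the 8 gap genes, 7 were downregulated in *Raf926* embryos and none was upregulated. *hb* was not called. Calls needed a change of more than 1.5-fold together with an adjusted p below 0.1, a rule that called 49.7% of all genes tested and 26.9% as lower in *Raf926*. The median log2 fold change of the 8 genes was −2.12, beside −0.043 over all genes tested and −1.58 over the genes called lower. For the 7 downregulated genes every *Raf926* sample lay below every WT sample, which held for 35.2% of all genes tested. An exact two-sided permutation test gave p = 0.1 for each of these 7 genes, the smallest value that 3 samples against 3 allow. All 7 were called without *Raf926* replicate 2 as well.

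**Figure D1:**
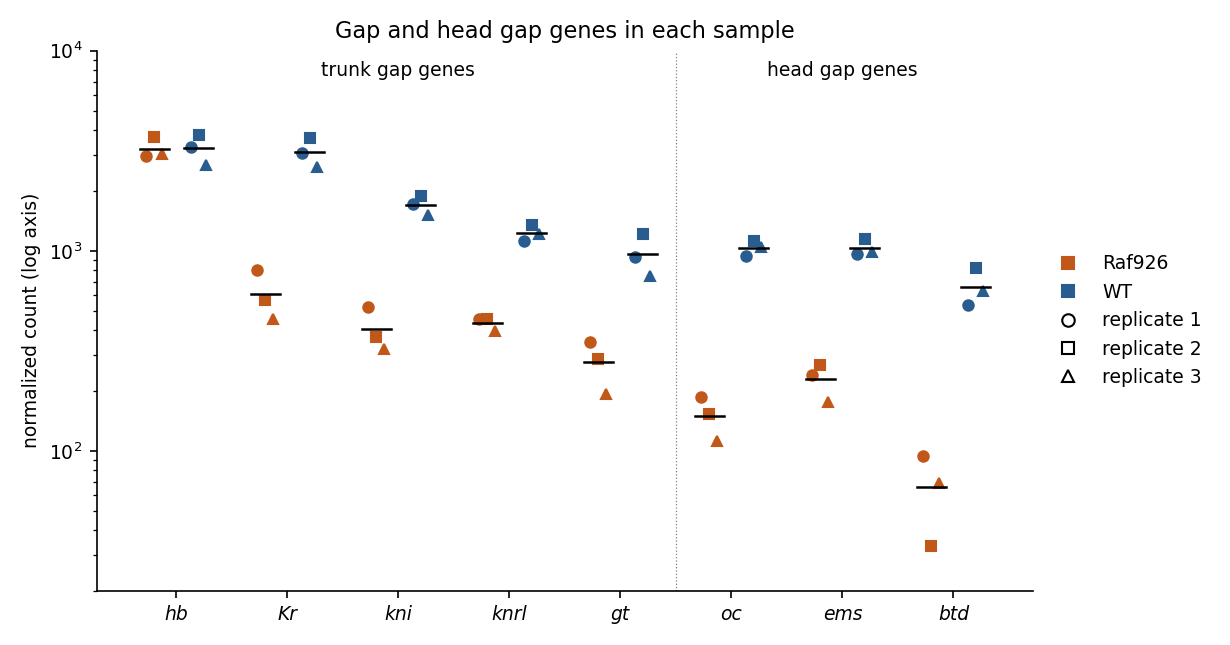
Normalized counts (log axis) of the 8 gap and head gap genes in each sample, with *Raf926* to the left of WT for each gene, symbols for the replicates and a black bar for the mean of 3. The *Raf926* and WT samples of *hb* overlap, while for the other 7 genes all *Raf926* samples lie below all WT samples.

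*hb* (FBgn0001180, 3R, 8690980 to 8697822, minus strand, BDGP6.54) encodes a zinc finger protein that represses *Kr*, *kni* and *gt* where it is abundant and is both loaded into the egg as mRNA and transcribed in the zygote. Its normalized counts were 2961, 3697 and 3052 in *Raf926* embryos, against 3321, 3799 and 2689 in WT embryos. The ranges of the genotypes overlapped, and the lowest of the 6 values was a WT one. The means were 3237 ± 401 in *Raf926* and 3270 ± 557 in WT (SD, n = 3 each). The log2 fold change was −0.01 (95% confidence interval −0.36 to 0.33, standard error 0.15, adjusted p = 0.94, edgeR). A change within this interval is not excluded at this replication.

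*Kr* (FBgn0001325, 2R, 25226611 to 25231394, plus strand) encodes the zinc finger repressor of the central domain and is the gene whose loss removes thoracic and anterior abdominal segments. Its normalized counts were 806, 568 and 458 in *Raf926* embryos, against 3092, 3646 and 2615 in WT embryos. The highest *Raf926* value was thus well under the lowest WT value. *Raf926* embryos held 19.6% of the WT counts on average (611 ± 178 and 3118 ± 516, SD, n = 3 each), or −2.35 on the log2 scale (standard error 0.23, adjusted p = 1.5e-04, edgeR). In the annotation *Kr* lies within the span of *CG9380*, a gene on the opposite strand whose exons it does not overlap. *CG9380* was also lower, with 275, 531 and 408 normalized counts in *Raf926* embryos and 2553, 1851 and 3412 in WT embryos (log2 fold change −2.69, adjusted p = 2.9e-04, edgeR). The replicates of these genes did not follow each other, since *CG9380* was lowest in *Raf926* replicate 1, where *Kr* was highest.

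*kni* and *knrl* are neighbouring paralogs on 3L that encode orphan nuclear receptors. *kni* is the gap gene of the abdomen, while both genes act in the head and in tracheal branches. *kni* (FBgn0001320, 20692330 to 20695378, minus strand) had normalized counts of 526, 370 and 322 in *Raf926* embryos, against 1723, 1871 and 1503 in WT embryos. *knrl* (FBgn0001323, 20597141 to 20620659, minus strand) had 456, 457 and 398 in *Raf926* embryos, against 1117, 1338 and 1207 in WT embryos. Both genes were lower in every *Raf926* sample, *kni* to 23.9% of WT and *knrl* to 35.8% of WT. The log2 fold changes were −2.07 for *kni* (standard error 0.21, adjusted p = 1.8e-04, edgeR) and −1.48 for *knrl* (standard error 0.14, adjusted p = 1.5e-04, edgeR). *knrl* was the least changed of the 7 downregulated genes. The ratio of *kni* to *knrl* within a sample, on the TPM scale, was 2.16, 1.62 and 1.63 in *Raf926* embryos and 3.08, 2.82 and 2.54 in WT embryos. These ratios did not overlap between the genotypes, and the ratio was lower in every *Raf926* sample. The genes are 71.67 kb apart, with 1 other protein-coding gene, *CG13251*, between them.

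*gt* (FBgn0001150, X, 2427113 to 2428967, minus strand) encodes a basic leucine zipper repressor with an anterior and a posterior domain, and it sets the borders of *Kr*. Its normalized counts were 351, 286 and 193 in *Raf926* embryos, against 925.8, 1210.5 and 748 in WT embryos. *gt* had the widest relative spread among WT samples of the 8 genes, and the genotypes still did not overlap. The means were 277 ± 79.4 in *Raf926* and 962 ± 233 in WT (SD, n = 3 each), or 28.8% of WT (log2 fold change −1.80, standard error 0.27, adjusted p = 0.0011, edgeR).

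The head gap genes are activated by high levels of Bicoid and pattern the antennal, intercalary and more anterior head segments in overlapping domains. *oc* (FBgn0004102, X, 8630159 to 8650681, minus strand), also known as *orthodenticle*, encodes a homeodomain protein that is needed for the anterior brain and again at the ventral midline. Its normalized counts were 185, 152 and 112 in *Raf926* embryos, against 938, 1117 and 1043 in WT embryos. WT samples stayed close together, and the highest *Raf926* sample was far under all of them. *Raf926* embryos held 14.5% of the WT counts (log2 fold change −2.79, standard error 0.22, adjusted p = 7.1e-05, edgeR), the smallest adjusted p of the 8 genes.

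*ems* (FBgn0000576, 3R, 13901853 to 13904620, plus strand) encodes a homeodomain protein of the head segments, the deutocerebral brain and the tracheal pits and filzkörper. Its normalized counts were 238, 269 and 176 in *Raf926* embryos, against 964, 1140.4 and 990.1 in WT embryos. The groups lay far apart, and *Raf926* embryos averaged 22.1% of WT (log2 fold change −2.18, standard error 0.20, adjusted p = 1.3e-04, edgeR). Its neighbour and paralog *E5*, 26.9 kb away with no protein-coding gene between, had normalized counts of 52.4, 93.3 and 43.1 in *Raf926* embryos, against 138, 117 and 154 in WT embryos (log2 fold change −1.11, adjusted p = 0.025, edgeR). The TPM of *ems* over that of *E5* was 3.84, 2.41 and 3.40 in *Raf926* samples and 5.84, 8.17 and 5.40 in WT samples, without overlap. The ratio was thus lower in every *Raf926* sample.

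*btd* (FBgn0000233, X, 9694186 to 9697558, plus strand) encodes a zinc finger protein related to Sp1 and is needed for the antennal, intercalary and mandibular segments. Its normalized counts were 94.2, 33.6 and 69.4 in *Raf926* embryos, against 533, 821 and 631 in WT embryos. Few reads lay behind the *Raf926* values, with 81, 32 and 66 rounded counts in the 3 libraries, and the genotypes still lay far apart. The difference was also the largest of the 8, with 9.93% of the WT mean (log2 fold change −3.33, 95% confidence interval −4.22 to −2.44, adjusted p = 3.3e-04, edgeR), and 5.64% of all genes tested had a lower log2 fold change. Without *Raf926* replicate 2, the lowest sample, the log2 fold change was −2.98, and without *Raf926* replicate 1, the highest of its group, it was −3.68. The paralog *Sp1*, 32.1 kb from *btd* with no protein-coding gene between, had normalized counts of 60.5, 40.9 and 73.6 in *Raf926* embryos, against 839, 960.2 and 1000.1 in WT embryos (log2 fold change −4.00, adjusted p = 3.5e-05, edgeR). The TPM of *btd* over that of *Sp1* was 1.98, 1.03 and 1.22 in *Raf926* samples and 0.813, 1.09 and 0.808 in WT samples. Those ratios overlapped between the genotypes, unlike the ratio of *kni* to *knrl* and that of *ems* to *E5*.

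Levels of different genes were compared on the TPM scale, which accounts for transcript length. In *Raf926* embryos *hb* was at 28.9 ± 4.0 TPM, followed by *Kr* at 6.61 ± 2.14 TPM, *kni* at 5.94 ± 1.68 TPM, *gt* at 4.80 ± 1.43 TPM, *knrl* at 3.26 ± 0.411 TPM and *ems* at 2.703 ± 0.607 TPM (SD, n = 3). *oc* at 0.870 ± 0.219 TPM and *btd* at 0.643 ± 0.301 TPM were lowest. From *Kr* down to *ems* each gene overlapped the next in its range over the 3 samples, as did *oc* and *btd*, whereas *hb* stood clear of *Kr*, and *ems* of *oc*. In WT embryos *Kr* was first at 40.5 ± 5.44 TPM, then *hb* at 35.0 ± 4.29 TPM and *kni* at 29.9 ± 1.65 TPM, each overlapping the next. *gt* at 19.95 ± 3.98 TPM, *ems* at 14.7 ± 1.09 TPM and *knrl* at 10.7 ± 0.826 TPM came next without overlap between neighbours, and *btd* at 7.83 ± 1.57 TPM and *oc* at 7.28 ± 0.657 TPM overlapped at the low end. The order was the same by reads per kilobase (RPKM) for all 8 genes in both genotypes. The plot of level order shows *hb* well above the other genes in *Raf926* embryos and among *Kr* and *kni* in WT embryos. Within a sample *Kr* stood at 0.337, 0.184 and 0.178 of the *hb* TPM in *Raf926* embryos, against 1.13, 1.18 and 1.16 in WT embryos. The WT samples thus agreed closely in this ratio, and *Raf926* replicate 1 was nearer to them than the other two *Raf926* replicates were.

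**Figure D2:**
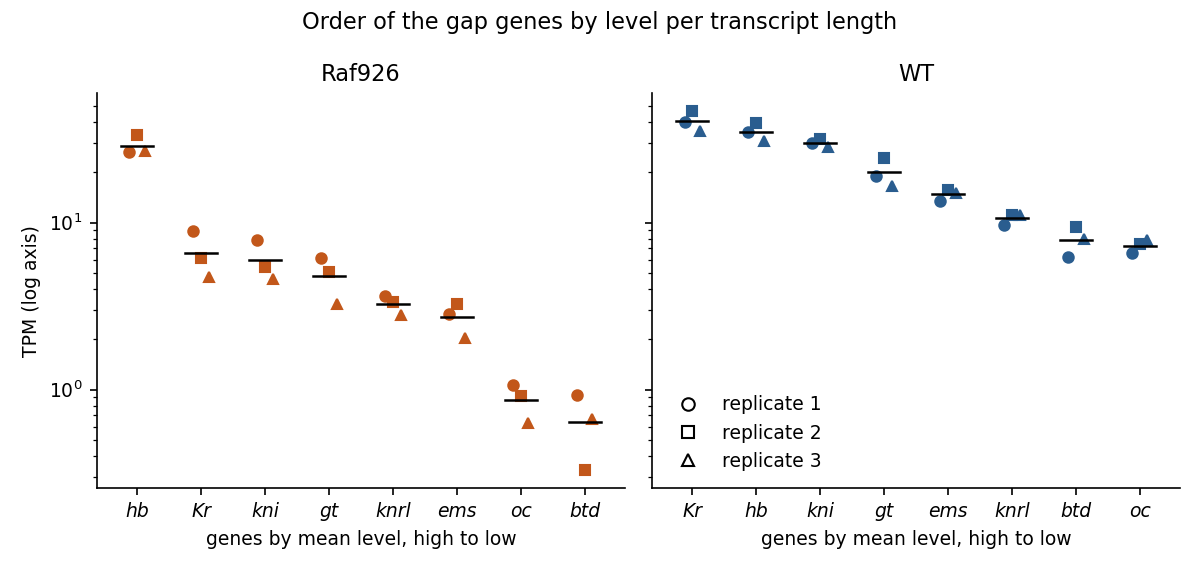
TPM (log axis) of the 8 genes in *Raf926* embryos (left) and WT embryos (right), each panel ordered by its own mean level, with symbols for the replicates and a black bar for the mean of 3. In *Raf926* embryos *hb*, at 28.9 TPM, stands apart from *Kr*, at 6.61 TPM, while in WT embryos *Kr*, *hb* and *kni* lie between 28.2 and 46.3 TPM.

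*hb* has 2 transcripts in the files, with start sites 3222 bases apart. The distal promoter, of hb-RB, is known to give the maternal mRNA and the later zygotic stripes, and the proximal one, of hb-RA, the early anterior zygotic domain that Bicoid activates. RSEM gives each gene the mean length of its transcripts weighted by their abundance, and the shares were computed back from that length, so they are estimates of a read assignment and not separate counts. hb-RB was estimated at 21.5, 28.6 and 22.5 TPM in *Raf926* embryos, against 26.2, 32.1 and 24.8 TPM in WT embryos, with overlap. hb-RA was estimated at 5.04, 4.93 and 4.14 TPM in *Raf926* embryos, against 8.82, 7.12 and 5.86 TPM in WT embryos, without overlap. The share of hb-RA was 19.0%, 14.7% and 15.5% in *Raf926* embryos and 25.2%, 18.2% and 19.1% in WT embryos, and these shares overlapped (p = 0.2, two-sided exact permutation test). On TPM values rescaled by TMM the hb-RA estimates overlapped too, at 5.40, 5.30 and 4.42 in *Raf926* embryos and 8.27, 6.89 and 5.26 in WT embryos. The genotypes were thus apart in hb-RA on one scale and not on the other. In both genotypes most *hb* RNA was assigned to the distal transcript.

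**Figure D3:**
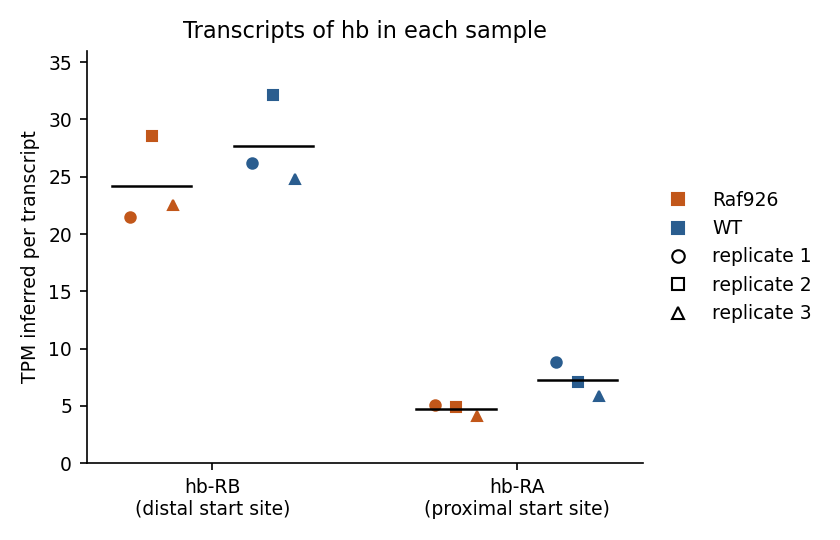
TPM inferred for the distal (hb-RB) and the proximal (hb-RA) transcript of *hb* in each sample, with *Raf926* to the left of WT and a black bar for the mean of 3. The distal transcript overlaps between the genotypes, and the proximal one lies between 4.14 and 5.04 TPM in *Raf926* and between 5.86 and 8.82 TPM in WT.

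For *Kr*, *kni* and *knrl* the transcript shares overlapped between the genotypes. The longer *Kr* transcript, Kr-RB, took between 5.50% and 11.2% of *Kr* in *Raf926* samples and between 6.63% and 10.8% in WT samples. kni-RA took between 64.6% and 91.3% of *kni* in *Raf926* samples and between 74.9% and 85.9% in WT samples. Both transcripts of *Kr* were lower in *Raf926* embryos, with Kr-RA at 16.3% and Kr-RB at 16.4% of the WT mean TPM. On TPM values rescaled by TMM, Kr-RA was at 18.6% and Kr-RB at 18.8% of the WT mean. *gt*, *ems* and *btd* have 1 transcript each in the files, and *oc* has 5, whose shares a mean length cannot give.

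The maternal anterior-posterior genes stood on the other side of zero. Of 8 such genes, 7 were upregulated and none was downregulated, where 22.7% of all genes tested were called higher, and their median log2 fold change was 1.41. *bcd*, the anterior activator of *hb* and of the head gap genes, had 4293, 5618 and 5168 normalized counts in *Raf926* embryos, against 2508, 2080.1 and 1806 in WT embryos (log2 fold change 1.24, adjusted p = 4.5e-04, edgeR). *exu*, which localizes *bcd* mRNA, had a log2 fold change of 2.71, *osk*, the organizer of the pole plasm, of 1.97, *swa*, also needed for *bcd* localization, of 1.88, and *nos*, the translational repressor of maternal *hb* mRNA, of 1.58. For each of these genes WT replicate 3 lay well below the other WT samples, so the sizes rest in part on that sample. WT normalized counts were 537, 646 and 144 for *exu* and 1216, 1549 and 220 for *osk*. They were 1824, 1662 and 768 for *swa* and 865, 1009 and 346 for *nos*. With each sample left out in turn, 7 of the 8 maternal genes were still called higher. *cad*, an activator of posterior gap genes that is supplied both maternally and zygotically, was at 0.83, and *pum*, the partner of Nanos, at 0.79. *stau* was not called, at 0.18, and had a value of −0.018 with library size alone. Within a sample the TPM of *hb* over *bcd* was 0.522, 0.498 and 0.448 in *Raf926* embryos and 1.00, 1.39 and 1.12 in WT embryos. *hb*, which holds maternal as well as zygotic transcripts, was thus lower relative to *bcd* in each *Raf926* sample although its own level was not called different.

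The terminal gap genes, which are activated at the poles downstream of the Torso receptor and Raf, were both downregulated. *hkb* had 16.3, 17.8 and 9.46 normalized counts in *Raf926* embryos, against 925.8, 1116 and 753 in WT embryos (log2 fold change −5.99, adjusted p = 1.7e-05, edgeR). *tll*, which represses *Kr* and *kni* at the posterior pole and acts later in the brain, had 151, 114 and 104 in *Raf926* embryos, against 551, 546 and 416 in WT embryos (log2 fold change −2.03, adjusted p = 3.2e-04, edgeR). *tll* was therefore lower by an amount close to that of *kni*, and *hkb* by far more than any of the 8 gap genes.

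Among 12 other head and gap-like genes and paralogs, 11 were downregulated, and their median log2 fold change was −2.44. The largest differences were in *D*, a Sox factor that is expressed across the trunk in the blastoderm and then in the neuroectoderm, at −4.35, in *Sp1* at −4.00, and in *eg*, a nuclear receptor related to *kni* and *knrl*, at −3.70, with only 0 to 10.5 normalized counts in *Raf926* samples and 51.3 to 61.4 in WT samples. *Optix* (−3.03), *croc* (−2.74), *nub* (−2.65), *slp2* (−2.23) and *slp1* (−2.04) were lower too, and *toy* was least so (−0.60). Single *Raf926* samples weighed on 3 of these values, since *D* was at −5.50 without *Raf926* replicate 1, and *eg* at −5.51 and *croc* at −4.23 without *Raf926* replicate 2, all of them still called. *cnc*, the cap'n'collar factor of the mandibular segment, was not called (0.40). Of the 8 pair-rule genes, which read the gap proteins, 5 were downregulated, with a median of −0.95. *run* was lowest at −2.60, followed by *slp1*, *opa* at −1.54, *ftz* at −1.07 and *prd* at −0.82. *eve* had 235, 218 and 180 normalized counts in *Raf926* embryos, against 212, 246 and 205 in WT embryos. *eve* (−0.07), *h* (−0.13) and *odd* (−0.31) were not called, and their genotypes overlapped. The call of *prd* was lost without *Raf926* replicate 1 or 3 or WT replicate 2 (log2 fold changes −0.85, −0.55 and −0.69), and that of *toy* without *Raf926* replicate 2 or 3 (−0.53 and −0.52).

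**Figure D4:**
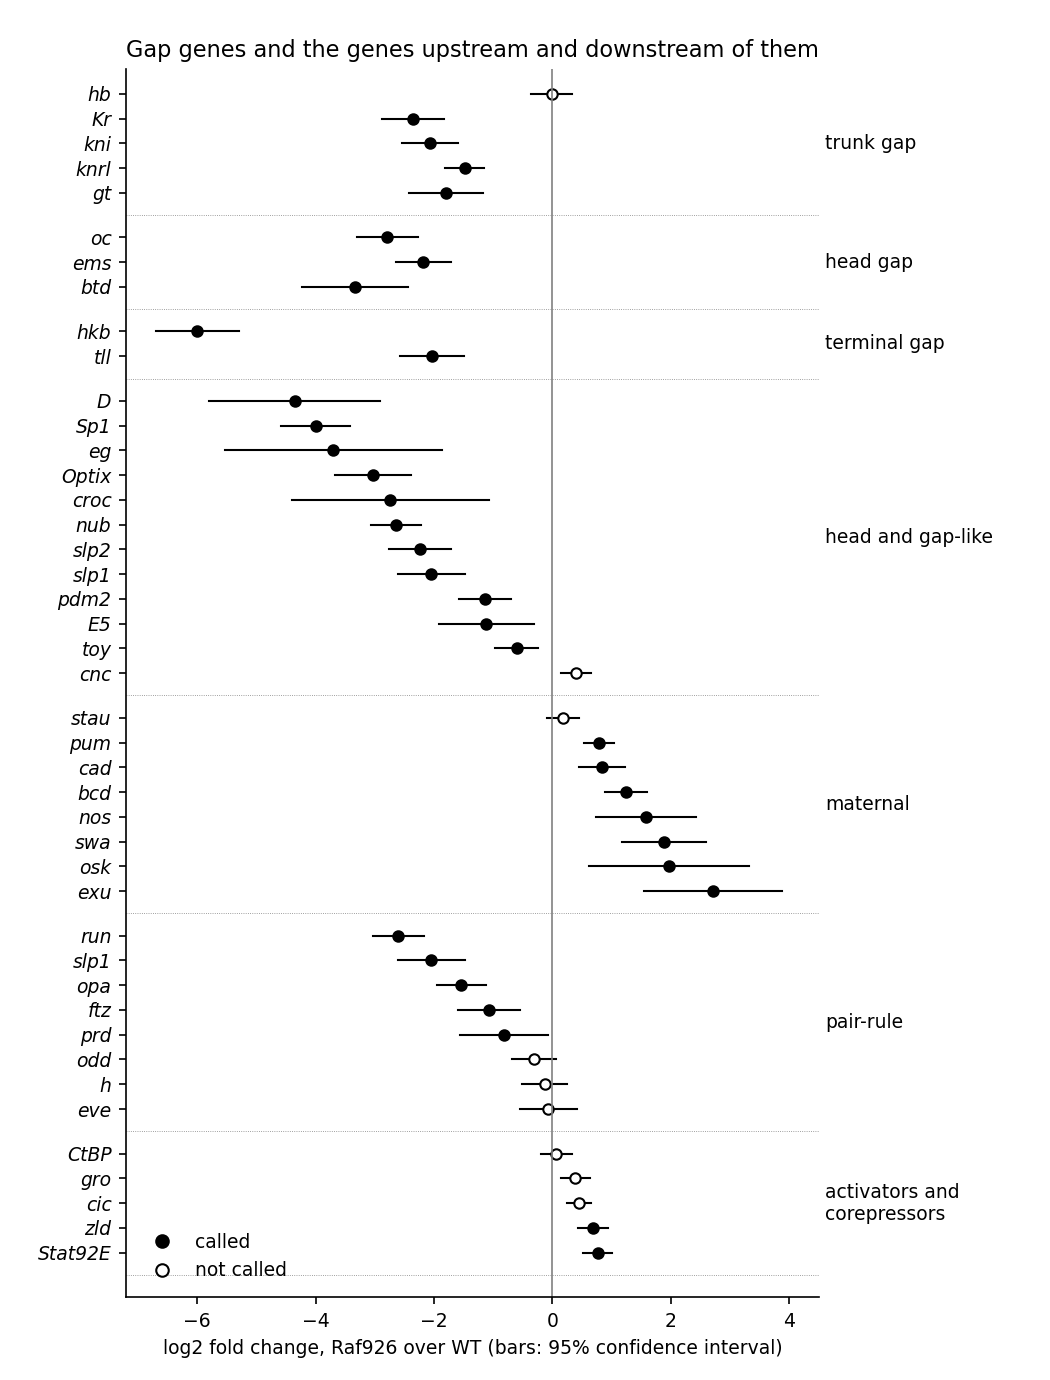
Log2 fold changes, *Raf926* over WT, with 95% confidence intervals, of the trunk and head gap genes, the terminal gap genes, head and gap-like genes, maternal genes, pair-rule genes and activators and corepressors. Filled circles mark called genes. The gap genes other than *hb* lie between −3.33 and −1.48, the maternal genes between 0.18 and 2.71.

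Of the 5 activators and corepressors with which gap proteins work, 2 were upregulated, *Stat92E* (0.76) and *zld* (0.68), the pioneer factor of the early zygotic genome. *cic* (0.45, adjusted p = 0.0034, edgeR) and *gro* (0.39, adjusted p = 0.015, edgeR) were under the fold change needed for a call. For both, every *Raf926* sample lay above every WT sample. The share of all genes tested that were separated in this direction was not computed. Separation in the opposite direction held for 35.2% of all genes tested. *CtBP* (0.07) was not called, and its genotypes overlapped. With library size alone *zld* and *Stat92E* were not called and *CtBP* was at −0.13. Of 7 temporal factors of the neuroblasts, in which *hb* and *Kr* are used again in sequence, 5 were downregulated, namely *cas* (−4.39), *nub* (−2.65), *svp* (−2.60), *Kr* (−2.35) and *pdm2* (−1.13). *hb* and *grh* (−0.13), which is also an epidermal gene, were not called.

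Several marker lists moved with the gap genes. All 4 neuroblast markers (*wor*, *dpn*, *ase* and *mira*) were downregulated, with summed levels of 26.8 to 37.4 TPM in *Raf926* embryos and 188 to 258 TPM in WT embryos, and so were all 4 neuronal markers, at 17.9 to 23.1 TPM in *Raf926* embryos and 102 to 147 TPM in WT embryos. Muscle markers were lower in 4 of 4 genes, tracheal markers in 2 of 3, those of hindgut and Malpighian tubules in 3 of 3 and those of the midgut in 2 of 2. Of 3 hemocyte markers 2 were higher and 1 was lower. The fat body gene *Fbp1* had 2437, 2379 and 1796 normalized counts in *Raf926* embryos, against 6.77, 14.6 and 14.2 in WT embryos (log2 fold change 7.52, adjusted p = 8.3e-06, edgeR), and *Lsp2* was too low to be tested. Genes of the epidermis and cuticle were upregulated in 4 of 4, summing to 1088 to 1503 TPM in *Raf926* embryos and 193 to 345 TPM in WT embryos. Pole cell markers were upregulated in 3 of 3, and of 4 amnioserosa markers 1 was called higher and 1 lower. Yolk and chorion genes of the adult female (*Yp1*, *Yp2*, *Cp36* and *Cp38*) summed to 0.19 to 0.26 TPM in *Raf926* samples and 0.16 to 0.53 TPM in WT samples. None of these markers was at 0 in all samples. The part of these tissues in the differences of the gap genes was not tested. The ratio of *Kr* to the pan-neuronal gene *elav* was 0.777, 0.764 and 0.660 in *Raf926* samples and 0.606, 0.627 and 0.434 in WT samples, so *Kr* was slightly higher relative to *elav* in each *Raf926* sample. *Kr* relative to the neuroblast gene *wor* was 5.02, 6.76 and 2.03 in *Raf926* samples and 1.31, 1.38 and 1.10 in WT samples, again higher in *Raf926*. *elav* and *wor* were the most reduced markers of their lists, so these ratios need not hold for the other markers. Log2 fold changes were −2.75 for *elav*, −2.01 for *Syt1*, −1.76 for *nSyb* and −1.28 for *brp*, beside −2.35 for *Kr*. Those of the neuroblast markers were −3.98 for *wor*, −3.64 for *ase*, −2.54 for *mira* and −1.64 for *dpn*.

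Genes that mark embryo age moved too. Maternal transcripts (*bcd*, *osk* and *smg*) summed to 436 to 567 TPM in *Raf926* embryos and 228 to 286 TPM in WT embryos. The cellularization genes *nullo*, *bnk*, *Sry-alpha* and *slam*, which are transcribed in the blastoderm together with the gap genes, summed to 102, 49.8 and 41.7 TPM in *Raf926* embryos and 179, 110 and 106 TPM in WT embryos. Of these, *nullo* (−2.10), *bnk* (−1.66) and *Sry-alpha* (−1.15) were downregulated, and *slam* (−0.06) was not called. The genotypes overlapped for *bnk*, with 519, 111 and 94.6 normalized counts in *Raf926* embryos and 1232, 571 and 484 in WT embryos (adjusted p = 0.067, edgeR). Relative to *Sry-alpha*, *Kr* was at 0.370, 0.736 and 0.603 in *Raf926* samples and 0.822, 1.24 and 1.09 in WT samples, without overlap. The same ratio did not overlap for *oc* and *btd* either, whereas for *kni*, *knrl*, *gt* and *ems* it did. For *knrl* it was 0.150, 0.3995 and 0.358 in *Raf926* samples and 0.201, 0.299 and 0.341 in WT samples. *hb* over *Sry-alpha* was 1.10, 4.01 and 3.39 in *Raf926* samples and 0.725, 1.05 and 0.940 in WT samples. Ratios were taken to *Sry-alpha* alone. *nullo* and *bnk* were reduced more than *Sry-alpha* and *slam* less, so the separations need not hold relative to those genes. *Raf926* replicate 1, with the most cellularization RNA of its group, also had the highest *Kr*, *kni*, *gt*, *oc* and *btd* among *Raf926* samples, but the lowest *hb*. The WT samples did not share this order. WT replicate 1 had the most cellularization RNA of its group, yet by normalized counts it was the lowest WT sample for 4 gap genes. WT replicate 2 was the highest for all 8 by normalized counts. By TPM, WT replicate 3 was the highest for *oc* (6.55, 7.48 and 7.82 TPM). Embryo age and genotype cannot be told apart in these pools.

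**Figure D5:**
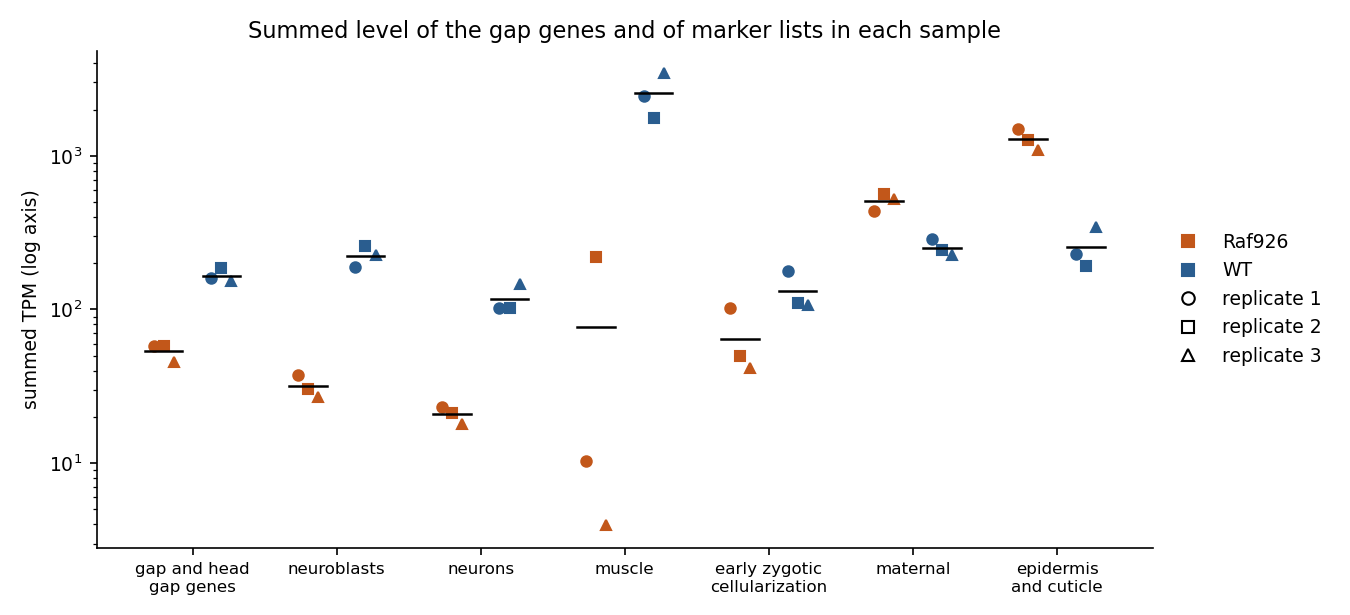
Summed TPM (log axis) of the 8 gap and head gap genes and of marker lists in each sample, with *Raf926* to the left of WT and a black bar for the mean of 3. The gap genes sum to between 45.4 and 57.9 TPM in *Raf926* embryos and between 153 and 185 TPM in WT embryos, and neuroblast, neuron and muscle markers are lower in *Raf926* while maternal and cuticle genes are higher.

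The genes closest in profile were sought for each gap gene among the 9076 tested genes with a mean of at least 100 normalized counts, by the root mean square difference of centred log2 CPM over the 6 samples. The gene closest to *Kr* was *kni*, at 0.156. The gene closest to *kni* was *tll*, at 0.084, and *Kr* ranked 7th for it. *gt* was closest to *CG13427* (0.116) and *Ilp4*, an insulin-like peptide (0.133). *knrl* was closest to *Phyhd1* (0.081). Among the head gap genes, *oc* was closest to *nub* (0.106) and *elav* (0.112), *ems* to *sage*, a salivary gland factor (0.126), and *otk2* (0.147), and *btd* to *Rx*, a homeobox gene of the brain (0.145), and *spdo* (0.282). *hb* was closest to *MESR4* and *Spt6* (both 0.044), among many genes with little difference between the samples. These values describe 6 samples that fall into 2 groups, so most of each profile is the difference between the genotypes. By normalized counts WT replicate 2 was the highest WT sample for all 8 gap genes, and *Raf926* replicate 3 was the lowest *Raf926* sample for 6 of them.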

How the data were processed

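RNA-seq was analysed for 3 *Raf926* and 3 WT samples, grouped by their titles. The authors aligned the reads with STAR 2.7.1a to BDGP6.22 (Ensembl 97) and quantified them with RSEM 1.3.1. They deposited per gene an expected count, a TPM value over all genes, rRNA included, an effective length and an FPKM value, which was not used. Expected counts are not normalized, and 11.5% were not whole, so they were rounded. RSEM divides reads between genes that share sequence, and the counting is not stated to use strand. Total expected counts per sample were 33275401 to 38120428.

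Names and coordinates came from BDGP6.54, a later annotation than that of the authors, which held 17587 of 17714 identifiers. *nos* and *h* were matched by identifier, since their symbols have changed. As in the study, 390 rRNA, snoRNA and snRNA genes and genes with a mean under 10 counts were removed, which left 11568. Counts were scaled by TMM and tested with edgeR's quasi-likelihood test (edgeR 4.0.16, R 4.3.3) and p-values adjusted by Benjamini-Hochberg. The study's own Wald test (DESeq2 1.42.0) was run as an alternative. Standard errors were obtained as the log2 fold change over the square root of F. The test was checked on simulated counts. No samples agreed within sampling noise (chi-square per degree of freedom of 22.8 or more). The records do not say whether replicates came from separate crosses, so p-values measure the spread between these samples.

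Transcript shares were solved from the abundance-weighted length of genes with 2 transcripts. For genes with 1 transcript, 99.6% of deposited lengths equalled the annotated length within 0.01 base. Fits with other scalings, filters and thresholds, with the replicate number as a block and with each sample left out were compared. The gap genes, the gene lists and the tests were chosen with earlier results of these data known. All 8 gap genes and any listed gene could be named, by default the called ones with the largest change and those not called, and the 2 genes closest in profile. A closest gene without a name in the annotation, and antisense RNAs, were left out. *CG9380* was added after its position was seen. Protein and promoter sequences were not used here. Figures were drawn with matplotlib 3.10.9.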

Additional observations from a re-analysis of the deposited data

How the results depend on the processing

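The 7 downregulated gap genes were called lower in each of 16 alternative settings, and *hb* in none. Their log2 fold changes stayed between −2.60 and −2.18 for *Kr*, −2.29 and −1.92 for *kni*, −1.68 and −1.41 for *knrl*, −1.999 and −1.59 for *gt*, −2.98 and −2.61 for *oc*, −2.38 and −2.02 for *ems* and −3.68 and −2.98 for *btd*. *hb* lay between −0.21, with library size alone, and 0.06, and its sign turned without *Raf926* replicate 1 (0.049), *Raf926* replicate 3 (0.030) or WT replicate 2 (0.062). Library size alone moved the median of all genes to −0.24 and called 1967 genes higher and 3833 lower, beside 2631 and 3116 with TMM. It left 0 of the 5 activators and corepressors called higher in place of 2, upper-quartile scaling and the test against a 1.5-fold change (glmTreat) left 1 each, and 4 were called with no fold change threshold, which also called *cnc* among the head and gap-like genes (1 in place of 0). Signs turned for *stau* (−0.018) and *CtBP* (−0.13) with library size alone, for *CtBP* with upper-quartile scaling (−0.089) and without WT replicate 3 (−0.021), for *grh* without *Raf926* replicate 2 (0.031) and for *eve* (0.039) and *h* (0.018) without *Raf926* replicate 3, all of them uncalled genes. With each sample left out in turn these lay between −0.13 and 0.062 for *hb*, −0.15 and 0.039 for *eve*, −0.22 and 0.018 for *h*, −0.021 and 0.13 for *CtBP* and −0.29 and 0.031 for *grh*, and 5422 to 5703 of all genes were called. *prd* lost its call without *Raf926* replicate 1, *Raf926* replicate 3 or WT replicate 2, and *toy* without *Raf926* replicate 2 or 3. *prd* was also lost at an FDR of 5% (adjusted p = 0.059) and, with *toy*, in the glmTreat test (adjusted p = 0.25 and 0.43). The cause was not tested. The test against a 1.5-fold change called 4301 genes and no fold change threshold 7712, beside 5747. The settings with an FDR of 5% and with no fold change threshold reused the main fit. Dropping the threshold could not remove a call, so that setting is no check of the 7 genes.

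Same-numbered samples did not deviate together (correlations of −0.039, −0.20 and −0.18 across genes), so the numbers were not taken to pair them. With the replicate block 7 gap genes and 5493 of all genes were called. Depth limited *btd* most, with 32 to 81 counts in *Raf926* libraries, where counting error adds to the spread between samples. Counts carry no molecular identifiers, and 3 samples a group limit every estimate.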
